A study of Mus musculus with 9 samples.

Results

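Cyp4b1, Gm525, Fam180a, Pxmp2, Pcp4l1, Gm19705 and Gng10 are 7 of the 24321 genes whose expression was determined in mouse meningeal lymphatic endothelial cells (MLECs). They were picked because their FPKM values (fragment counts scaled to transcript length and to the mapped fragments of the library) in control MLECs lie well above those in MLECs of tumor-bearing mice, with no numerical limit given. The lower level in tumor-associated MLECs is therefore how the genes were selected on their values, and it is described below without a test. All 7 passed the filter used for the tests, which required 3 or more libraries with an FPKM of 1 or higher, as did 9955 genes in all. Fam180a and Pxmp2 passed it through the controls, since each reached an FPKM of 1 in 1 of the 6 tumor-associated libraries.

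The 9 RNA-seq libraries were prepared from male mice aged 10 weeks in 3 groups of 3. Control mice received PBS, GL261 mice received GL261 glioma cells and B16 mice received B16 melanoma cells. By the labels, GL261 mice were killed after about 3 weeks and B16 mice after about 2 weeks, with no time given for controls. The study's text gives 2 weeks for all groups in its results and 2 to 3 weeks in its methods. With the times of the labels, tumor type and time after injection cannot be told apart. Each library came from the meninges of 6 pooled mice, from which 10 endothelial cells were taken after sorting, and the replicates are therefore separate pools of animals. No genotype or strain is given in the sample labels, and no transgene is named there. The study's methods name male C57BL/6 mice. The labels name the cisterna magna as the injection site and LYVE-1 as a sorting marker, whereas the study's text also describes subdural injection and PDPN sorting. Because only few cells went into each library, a lower FPKM can reflect fewer cells carrying a transcript or less transcript per cell, which cannot be told apart in pooled cells.

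Lymphatic endothelial cells line the vessels that carry fluid and immune cells from tissue to lymph nodes, and those of the dura drain cerebrospinal fluid towards the cervical nodes. The 7 genes have no common family. Cyp4b1 encodes a cytochrome P450 monooxygenase that oxidizes fatty acids and foreign compounds. Pxmp2 encodes a channel protein of the peroxisomal membrane, and Gng10 a gamma subunit of heterotrimeric G proteins, which relay signals from cell surface receptors. Pcp4l1 is a relative of Pcp4, a small calmodulin-binding protein. Fam180a and Gm525 encode proteins of little known function, and Gm19705 is a long noncoding RNA in RefSeq.

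In the mm9 build, with the GENCODE M1 annotation, 6 of the 7 genes had a position. Cyp4b1 lies on chromosome 4 from 115297303 to 115320322 on the minus strand and has 12 exons. Gng10 lies on the same chromosome from 59047960 to 59054775 on the plus strand. Its exons overlap those of Gm20503, annotated as protein coding on the same strand, so that reads of the overlap cannot be told apart by strand. Gm525 lies on chromosome 11 from 88935155 to 88954354 on the plus strand. Fam180a lies on chromosome 6 from 35262746 to 35276141, Pxmp2 on chromosome 5 from 110703301 to 110715205 and Pcp4l1 on chromosome 1 from 173103393 to 173126399, all on the minus strand. The exons of Pxmp2 overlap the antisense transcript Gm15788, and since strand use in the counting is not given in the sources used here, reads of the pair cannot be told apart. Gm19705 had no entry in GENCODE M1. The longest transcripts of the 6 genes had 0 other loci in mm9 with at least 95% identity over 20% of their length. The longest other match of Cyp4b1 covered 27.9% of its transcript at 92.2% identity, and Cyp4b1-ps2, a pseudogene copy, was listed at 0 in all 9 libraries.

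Gm525 is among the shorter coding genes of the 7, with 273 coding bases, or 90 codons before the stop. Pcp4l1 and Gng10 were shorter, with 207 coding bases each. The coding sequence of Gm525 (GENCODE M1, plus strand) is shown because it is the most abundant of the 7 transcripts and has no descriptive name, with the start and stop codons in capitals.
Gm525: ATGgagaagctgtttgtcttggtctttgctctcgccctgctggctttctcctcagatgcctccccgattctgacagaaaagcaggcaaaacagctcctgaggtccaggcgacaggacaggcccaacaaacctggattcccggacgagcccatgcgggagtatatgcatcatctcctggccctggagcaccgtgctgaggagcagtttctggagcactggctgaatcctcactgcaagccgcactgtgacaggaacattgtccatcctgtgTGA

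Sequences of the 250 bases upstream of the RefSeq transcription start (GRCm38.p6, a later build than that of the FPKM values) matched 6 of the 7 genes, all but Pxmp2. They were searched on both strands for 13 short motifs. None of the motifs occurred in more than 2 of the 6 genes. The GC box GGGCGG, found in 32.7% of 32851 promoters, occurred in Cyp4b1 and Gng10, the CCAAT box CCAAT (33.8%) in Pcp4l1 and Gm19705, and the TEAD motif GGAATG (12.6%) in Gng10 and Gm19705. The forkhead motif TGTTTAC (3.17%) occurred in Gm525 alone, and the AP-1 motif TGAGTCA (4.46%) and the ETS motif GCGGAA (8.79%) occurred in Fam180a alone. The KLF motif CCACCC (28.1%) occurred in Gm19705 as a pair of adjacent matches. Gm19705 had more than 1 window of 250 bases, and so more sequence searched than the shares per promoter refer to. Its TEAD match lay in the window from base 136683146, and its CCAAT and KLF matches lay in that from base 136683379. The TATA box TATAAA (12.4%), the ETS motif CCGGAA (12%), the SOX motif AACAAAG (5.03%), the E-box CACGTG (6.02%), the GATA motif AGATAAG (2.74%) and the CRE motif TGACGTCA (1.55%) matched none of the 6. CpG dinucleotides numbered 18 upstream of Gng10 and between 0 and 7 upstream of the other genes, against a median of 6 over all promoters, with quartiles of 2 and 16. The promoters below belong to the most abundant of the 7 genes, to the gene that differed most between the tumors and to the gene with the most CpG, with each motif match in capitals.
Gm525 (chr11:89073591-89073840, plus strand): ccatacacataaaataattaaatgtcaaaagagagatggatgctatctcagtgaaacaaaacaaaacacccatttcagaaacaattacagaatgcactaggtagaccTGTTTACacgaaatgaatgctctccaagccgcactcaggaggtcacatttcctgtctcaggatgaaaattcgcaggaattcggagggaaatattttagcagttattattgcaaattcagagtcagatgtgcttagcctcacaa
Cyp4b1 (chr4:115647722-115647971, minus strand): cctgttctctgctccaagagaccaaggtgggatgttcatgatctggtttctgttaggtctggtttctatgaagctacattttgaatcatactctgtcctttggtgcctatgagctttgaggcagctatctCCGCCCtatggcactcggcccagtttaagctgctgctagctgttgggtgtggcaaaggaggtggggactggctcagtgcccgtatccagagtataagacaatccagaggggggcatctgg
Gng10 (chr4:59034906-59035155, plus strand): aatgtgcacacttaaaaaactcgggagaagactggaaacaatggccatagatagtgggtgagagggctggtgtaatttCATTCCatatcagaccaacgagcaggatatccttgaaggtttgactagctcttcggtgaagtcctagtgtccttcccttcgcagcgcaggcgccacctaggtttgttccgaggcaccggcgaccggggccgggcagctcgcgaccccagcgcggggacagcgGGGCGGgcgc

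The lymphatic identity of the sorted cells was examined with marker lists. The summed FPKM of 14 lymphatic endothelial markers was 13673 to 17312 in controls and 1124 to 6880 in the tumor-bearing groups. Ccl21c was the largest part of the control sums, with 7384, 13803 and 9750, and was 142 to 4187 in tumor-associated libraries. Of the 13 tested markers 5 fell (Flt4, Ccl21c, Mmrn1, Reln and Stab2) while 0 rose. By fitted difference 12 were lower and 1, Foxc2, was higher (2.05, limma adjusted p 0.185). The sorting markers Lyve1 (-0.36, limma adjusted p 0.629) and Pdpn (-1.48, limma adjusted p 0.235) were not called. The sum of 23 blood endothelial markers was 1269 to 1962 in controls and 5476 to 10229 in tumor-associated libraries, where 12 of 21 tested markers rose and 0 fell (limma, adjusted p under 0.05). With detected genes as a covariate, 0 lymphatic markers were called lower and 2 blood endothelial markers higher. Every control had fewer detected genes than any tumor-associated library, so that this covariate and tumor cannot be told apart. Leaving out single libraries gave 1 to 5 lymphatic markers lower (1 without control 3, 2 without control 2 or GL261 1, and 3 without control 1, GL261 2 or B16 2) and 8 to 10 blood endothelial markers higher (8 without control 1 or control 3). The pan-endothelial sum was 2422 to 3660 over all libraries, with 0 of 7 called. The part of this shift in the marker lists in the levels of the 7 genes was not tested. The mural list summed to 1270 in control 1, against 13.2 to 195 elsewhere. Acta2 and Tagln, genes of contractile smooth muscle cells, had FPKM of 505 and 641 in that library and at most 6.34 and 2.15 in any other. Of the remaining lists, the fibroblast list summed to 30.2 to 167 in controls and 2.06 to 62.4 in tumor-associated libraries, with Dcn lower in tumor-associated MLECs as the 1 called gene of 3 tested. The leukocyte sum was 77.1 to 252 against 15.0 to 365, with 0 of 4 called, and the neural and glial sum was 0 to 0.739 against 0 to 41.9, with 0 of 2 called. S100b was the largest part of the latter sum in B16 libraries, with 37.0, 36.5 and 25.3. It was 0, 3.00 and 0 in GL261 libraries and at most 0.739 in controls (GL261 minus B16 -4.40, limma adjusted p 0.128). No melanocytic, epithelial or erythroid marker passed the filter, and the highest sum of these lists was 9.15.

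The number of genes detected (FPKM above 0) was 7303 to 8688 in controls and 8736 to 10852 in tumor-associated MLECs, so that every control had fewer than any tumor-associated library. In a fit with this number as a covariate, calls lost and differences changed can therefore not be put down to detection or to tumor. The FPKM table holds no read numbers, and the depth behind each value is unknown from it. The study's read table lists fewer mapped reads for every control than for any GL261 or B16 library, so that depth and tumor cannot be told apart. Tbp, a general transcription factor gene that every cell uses, was listed at 0 in control 1 and control 3, so that a gene with this value is called listed at 0 rather than absent.

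In control MLECs the 7 genes spanned more than an order of magnitude per length of transcript. Gm525 had a mean FPKM of 1242 ± 406 (SD, n = 3), rank 75 of 24321 genes by control mean. Cyp4b1 followed with 394 ± 163 (rank 259) and Gm19705 with 205 ± 31.2 (rank 486). Gng10 had 82.0 ± 13.6 (rank 1092), Pcp4l1 80.2 ± 81.2 (rank 1113), Fam180a 56.7 ± 45.9 (rank 1464) and Pxmp2 30.5 ± 16.8 (rank 2386). The control libraries of Gm525, Cyp4b1, Gm19705 and Gng10 did not overlap between neighbours in this order, whereas those of Gng10, Pcp4l1, Fam180a and Pxmp2 overlapped from each gene to the next.

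**Figure D1:**
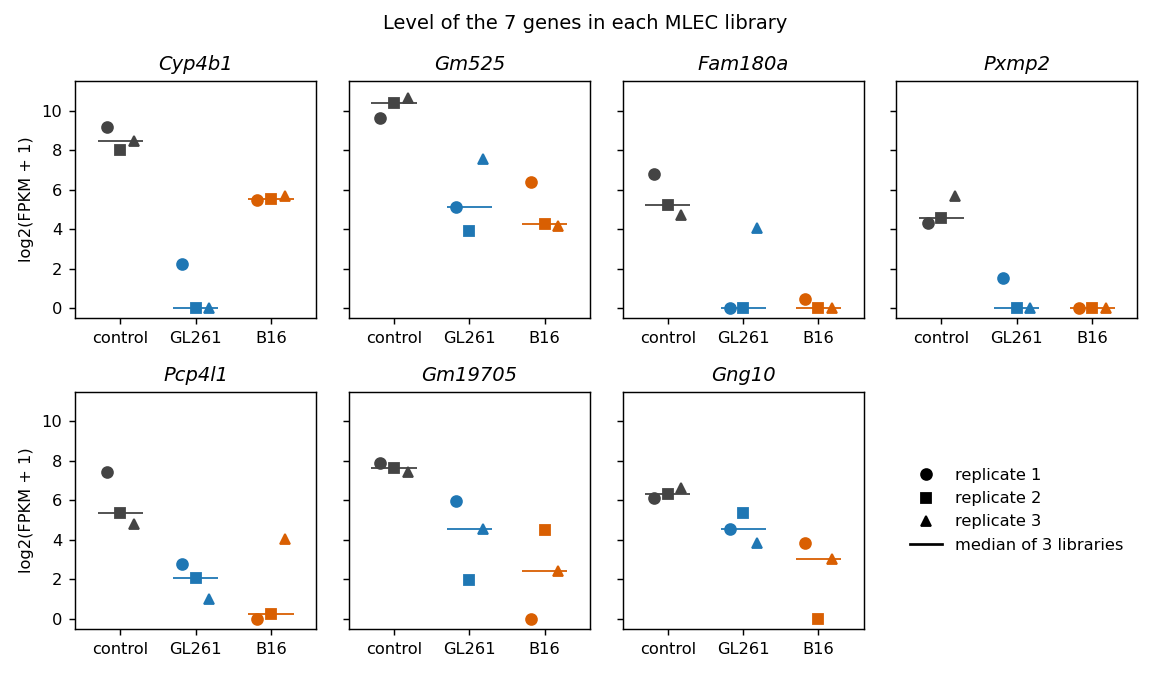
Level of each of the 7 genes, as log2(FPKM + 1), in the 3 control, 3 GL261 and 3 B16 MLEC libraries, where a symbol is 1 library (its shape gives the replicate number) and a line the median of a group. Control libraries lie above every tumor-associated library in each panel, which is how the genes were chosen, and the GL261 libraries of Cyp4b1 (FPKM 0 to 3.73) lie below its B16 libraries (43.9 to 50.9).

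Cyp4b1 had an FPKM of 576, 259 and 349 in controls 1, 2 and 3. It was 3.73 in GL261 1 and listed at 0 in GL261 2 and 3, whereas it was 43.9, 44.6 and 50.9 in the B16 libraries. The B16 values lay close together and between those of the other groups. The difference from control in mean log2(FPKM + 1) was -7.80 for GL261 and -2.98 for B16. With the number of detected genes as a covariate, the difference between both tumors together and control was -2.50, against -5.39 without it.

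Gm525 had the highest values of the 7. Its FPKM was 801, 1325 and 1600 in controls 1 to 3, then 33.5, 13.9 and 184 in GL261 1 to 3 and 82.2, 18.2 and 17.0 in B16 1 to 3. It was detected in every tumor-associated library, unlike the other 6 genes. The highest tumor-associated values were those of GL261 3 and B16 1. Of 14 lymphatic markers 4 had their 2 highest tumor-associated values in the same libraries (Lyve1, Pdpn, Mmrn1 and Stab1), 5 had neither of these libraries among the 2 highest, and 1, Ccl21b, was lowest in them (3.00 and 0.0709, against 16.7 to 228 in the others). Prox1, the transcription factor of lymphatic identity, was 16.5 in GL261 3 but 2.37 in B16 1. The part of these markers in the Gm525 level was not tested. The difference from control was -4.71 for GL261 and -5.29 for B16 on the log2 scale.

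Fam180a and Pxmp2 were listed at 0 in most tumor-associated libraries. Fam180a was 109, 36.0 and 24.9 in controls 1 to 3. Among tumor-associated libraries it was 15.7 in GL261 3 and 0.379 in B16 1 and was listed at 0 in the other 4. GL261 3 and B16 1 are the libraries in which Gm525 was highest among tumor-associated MLECs. Pxmp2 was 19.1, 22.6 and 49.8 in controls 1 to 3, 1.93 in GL261 1 and listed at 0 in the other 5. The lowest control value of Pxmp2 was 9.93 times the highest tumor-associated value, the widest such gap of the 7, whereas the ratio of 1.59 for Fam180a was the narrowest.

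Pcp4l1 had the largest control SD of the 7 relative to its mean, with an FPKM of 174 in control 1 against 39.8 and 27.1 in controls 2 and 3. Its values were 5.78, 3.30 and 1.03 in GL261 1 to 3. In B16 1 it was listed at 0, and B16 2 and 3 had 0.198 and 15.4. Control 1 held the highest value of 4 of the 7 genes (Cyp4b1, Fam180a, Pcp4l1 and Gm19705) and also the smooth muscle transcripts given above, whose part in these levels was not tested. Without control 1 the differences between tumor-associated and control MLECs were -5.08 for Cyp4b1, -4.20 for Fam180a, -3.38 for Pcp4l1 and -4.33 for Gm19705, against -5.39, -4.81, -4.17 and -4.44 with it.

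Gm19705, the noncoding RNA, had similar control values of 238, 201 and 176. It was 61.1, 2.91 and 22.4 in GL261 1 to 3, listed at 0 in B16 1 and 21.9 and 4.31 in B16 2 and 3. Gng10 was 69.6, 79.8 and 96.5 in controls and differed from control by -2.92 with both tumors joined, the smallest difference of the 7, but by -4.64 with detected genes as a covariate, where those of Cyp4b1 (-2.50), Fam180a (-3.45) and Gm525 (-4.05) were smaller. Its FPKM was 22.8, 39.9 and 13.3 in GL261 1 to 3, 13.3 in B16 1, listed at 0 in B16 2 and 7.30 in B16 3. The difference of Gng10 from control was -1.77 for GL261 and -4.06 for B16, and that of Gm19705 was -3.52 and -5.37. GL261 and B16 share their control libraries in all of these differences.

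The 7 genes together summed to an FPKM of 1963 to 2323 in controls and of 60.0 to 237 in GL261 and B16 MLECs. In all 7 the control and tumor-associated libraries did not overlap, and among all 9955 genes tested 4.44% had tumor-associated libraries that all lay below the controls. The median difference of the 7 was -4.60 on the log2 scale, against 0.20 over all genes. Across all genes 3.93% were called between tumor-associated and control MLECs (limma, adjusted p under 0.05), 1.02% lower and 2.90% higher in tumor-associated MLECs. The 7 genes were picked on this contrast, and nothing is read from their place in it.

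Whether the 7 genes differed between the tumors was not part of their selection and was tested. Cyp4b1 was lower in GL261 than in B16 MLECs by -4.82 in mean log2(FPKM + 1) (SE 0.67, 95% interval -6.28 to -3.35), and the libraries of the 2 groups did not overlap. Its adjusted p over all genes was 0.0679 (limma), above the threshold of 0.05, and ranged from 0.00676 to 0.283 over the alternatives. It passed under quantile normalization (adjusted p 0.0359, limma) and without GL261 1, the library in which Cyp4b1 was detected (difference -5.57, adjusted p 0.00676, limma). Gng10 was higher in GL261 by 2.29 (SE 0.90, interval 0.32 to 4.27, limma adjusted p 0.827). Its groups did not overlap either, but the lowest GL261 and highest B16 values both rounded to 13.3, and without B16 2 the difference was 1.14.

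For Gm19705, Gm525 and Pcp4l1 the interval of the difference held 0. The GL261 minus B16 difference was 1.85 for Gm19705 (interval -0.65 to 4.35), 0.58 for Gm525 (-1.26 to 2.42) and 0.53 for Pcp4l1 (-2.03 to 3.08). These intervals leave room for differences of several log2 units. Single libraries moved all of these values, and that of Gm19705 was 0.69 without B16 1, 0.95 without GL261 1, 2.94 without GL261 2 and 2.95 without B16 2. Fam180a and Pxmp2 were listed at 0 in 4 and 5 of the 6 tumor-associated libraries, so that their comparison between the tumors says nothing. Of the other 5 genes 0 were called (limma), with Cyp4b1 and Gng10 at an unadjusted p under 0.05. Among all genes 0.0100% were called (1 gene, B2m, a subunit of MHC class I; limma), while 548 genes had an unadjusted p under 0.05. Cyp4b1 and Gng10 had non-overlapping GL261 and B16 libraries, as did 13.8% of all genes. The median GL261 minus B16 difference over all genes was 0.01.

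**Figure D2:**
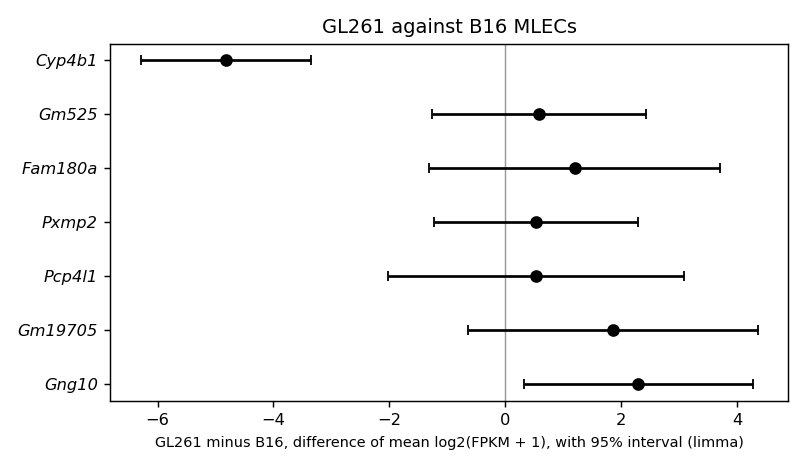
Difference between GL261 and B16 MLECs in mean log2(FPKM + 1) for each of the 7 genes (points), with 95% intervals from limma on 9 libraries in 3 groups (bars). The interval of Cyp4b1 (-6.28 to -3.35) lies below 0, that of Gng10 (0.32 to 4.27) lies above it, and the others cross it. Fam180a and Pxmp2 were listed at 0 in most of these libraries, and nothing is read from their intervals.

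Genes linked to the 7 by family, function or short coding sequence were listed, to see whether lower expression extended to them. They are called relatives here for short, although many are not of the same gene family, such as G protein alpha and beta subunits or peroxisome genes. Of 160 listed genes 156 were in the data and 99 passed the filter. Between tumor-associated and control MLECs 0 of the 99 were higher and 1 was lower, against 2.90% and 1.02% of all genes (limma). Their median difference was 0.10, and that of all genes 0.20. At an unadjusted p under 0.05 (limma), 11 were higher and 5 lower. The share of all genes at that level was not taken for this comparison, so that nothing is read from these counts. Between GL261 and B16 MLECs 0 of the 99 were called (limma), with 12 at an unadjusted p under 0.05, against 548 of all 9955 genes tested.

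The gene that fell was Gnas, which encodes the stimulatory G protein alpha subunit that activates adenylyl cyclase. Its FPKM was 1548, 1615 and 1777 in controls, 594, 581 and 404 in GL261 and 514, 639 and 777 in B16 libraries. Tumor-associated libraries all lay below the controls, with means of 585 ± 125 (SD, n = 6) and 1647 ± 118 (SD, n = 3). The difference was -1.52 (SE 0.22, limma adjusted p 0.00189), and it was not called without the variance trend (adjusted p 0.0759, limma) or with detected genes as a covariate (adjusted p 0.0902, limma). Overlapping and antisense transcripts are known at the Gnas locus, and their reads cannot be told apart here. The other 8 tested alpha subunits ranged from -0.84 (Gnal) to 1.11 (Gna13).

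The gamma subunits other than Gng10 showed no called gene among 5 tested, with a median difference of -0.19. Gng11, the most abundant of them, had an FPKM of 2709, 3644 and 4409 in controls and of 1048 to 2959 in tumor-associated libraries (difference -0.66, limma adjusted p 0.243). Gng5 was 1156, 1264 and 892 in controls and 1048 to 2188 in tumor-associated libraries (difference 0.60, limma adjusted p 0.196). The beta subunits, with which gamma subunits form dimers, had 0 of 4 called and a median of 0.33. Gnb1 had means of 280 ± 47.1 in controls (SD, n = 3) and 308 ± 56.0 in tumor-associated libraries (SD, n = 6), and Gnb2 had 198 ± 26.0 and 172 ± 59.8.

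Of 19 other Cyp4 genes, 3 passed the filter and 0 were called. The highest, Cyp4f16, was 24.3, 0 and 9.39 in controls and 3.03 to 13.9 in tumor-associated libraries, and Cyp4f13 was 0, 0 and 8.40 in controls and 0 to 16.2 in tumor-associated libraries. No other Cyp4 gene came near the control level of Cyp4b1. Other P450 enzymes and their electron donors had 0 of 11 called and a median of 0.26. Cyb5a, cytochrome b5, had an FPKM of 783 to 1063 in controls and 440 to 819 in tumor-associated libraries (difference -0.55, limma adjusted p 0.224), and Cyb5r3, its reductase, 240 to 365 and 134 to 333.

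Pxmp2 belongs to the Mpv17 family, of which 2 of 3 other genes passed the filter and 0 were called. Mpv17, a mitochondrial inner membrane protein, was 95.2, 80.8 and 138 in controls and 25.4 to 75.3 in tumor-associated libraries. These ranges did not overlap, but the difference of -1.32 had an adjusted p of 0.109 (limma). Mpv17l2 ranged from 26.3 to 104 in controls and from 12.4 to 85.5 in tumor-associated libraries. Of the wider list of peroxisome genes 39 were tested and 0 were called, with a median of -0.07. The most abundant were Prdx5, a peroxiredoxin, with 114 to 395 in controls and 108 to 254 in tumor-associated libraries, and Ech1, an enzyme of fatty acid oxidation, with 117 to 358 and 73.0 to 209.

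Calmodulins and their targets, listed for Pcp4l1, had 0 of 13 called and a median of -0.35. Calm2 had means of 900 ± 208 in controls (SD, n = 3) and 697 ± 82.7 in tumor-associated MLECs (SD, n = 6). Pcp4, the relative of Pcp4l1, was listed at 0 in every library. Small integral membrane proteins, listed as other genes with short coding sequences, had 0 of 13 called and a median of 0.72, with Smim11 at 204 to 451 in controls and 159 to 270 in tumor-associated libraries. Fam180b, the relative of Fam180a, had no row under that symbol.

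**Figure D3:**
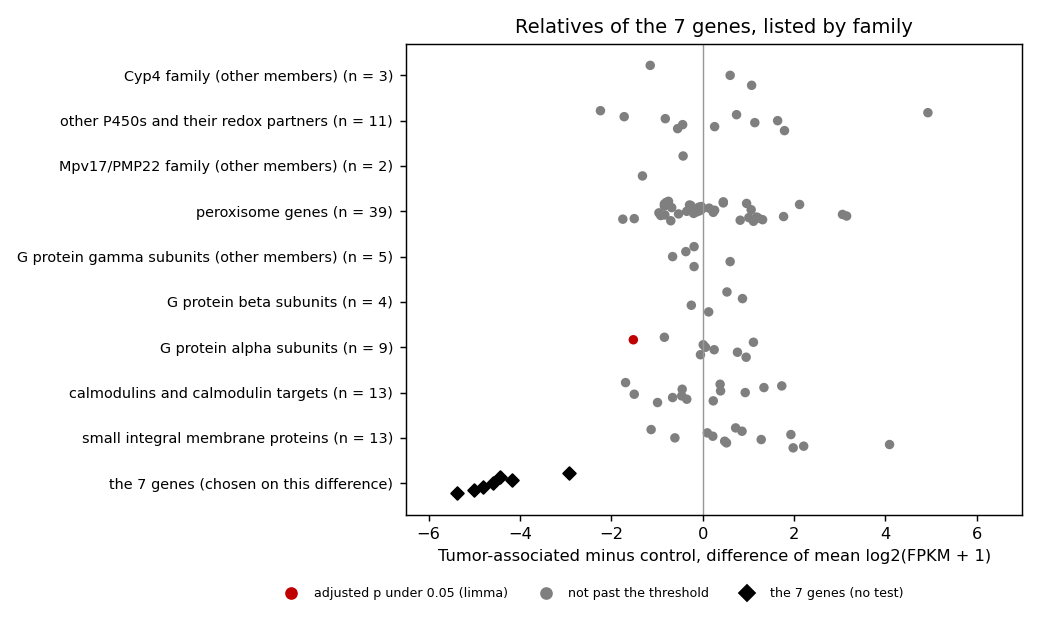
Difference between tumor-associated and control MLECs in mean log2(FPKM + 1) for each tested gene listed with the 7 genes by family, function or short coding sequence (circles, 1 row per list, with the number of tested genes) and for the 7 genes (diamonds, no test). Gnas at -1.52, from the list of G protein alpha subunits, is the 1 listed gene past the threshold (red). The 7 genes lie between -5.39 and -2.92 because they were chosen on this difference.

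The nearest tested gene on each side of each of the 7 was examined next, since position was not used to choose them. Of these 14 flanking genes 1 was called, against 3.93% of all genes, so that the count is near the background share. Pgam5, a mitochondrial phosphatase gene 4368 bp from Pxmp2, was 0.331, 0.853 and 0 in controls and 3.45 to 29.6 in tumor-associated libraries. It rose by 3.23 (SE 0.75, limma adjusted p 0.0320), opposite to Pxmp2, but 11 of 16 alternatives ended the call. These include leaving out control 1, control 3, any GL261 library, B16 2 or B16 3, where the adjusted p was 0.0554 to 0.0816 (limma).

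Pole, the catalytic subunit of DNA polymerase epsilon, lies 119 bp from Pxmp2 on the other side. It was 7.25, 7.12 and 5.01 in controls, 1.28, 1.16 and 0.925 in GL261 libraries, 1.87 in B16 2 and listed at 0 in B16 1 and 3. The groups did not overlap, as in 4.44% of all genes, and the difference was -2.09 (SE 0.64, limma adjusted p 0.0935). It passed under quantile normalization (adjusted p 0.0408, limma) and without the variance trend (adjusted p 0.0487, limma).

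Neither neighbour of Gng10 was called. Dnajc25, 9514 bp away, was listed at 0 in controls 1 and 2 and was 16.1 in control 3, against 0.236 to 10.3 in tumor-associated libraries (difference 0.80). Ugcg, glucosylceramide synthase, 147353 bp away, was 15.4, 57.8 and 30.7 in controls and 2.81 to 22.8 in tumor-associated libraries (difference -1.68, limma adjusted p 0.213). Tal1, 552942 bp from Cyp4b1, had a difference of -2.80 (limma adjusted p 0.0908), and Atpaf1, 137266 bp from it, one of 1.35. For Gm525, the differences were -1.61 for Dgke (6990 bp away) and 1.83 for Pctp (889624 bp away). Those for Fam180a were 0.16 for 1810058I24Rik (49249 bp away) and -0.05 for Mtpn (182764 bp away). The differences for Pcp4l1 were -0.43 for Sdhc (22658 bp away) and -1.03 for Tomm40l (21533 bp away). For Gm19705, whose neighbours were taken from the RefSeq gene order, they were -0.09 for Zfp281 and -0.18 for Nek7.

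**Figure D4:**
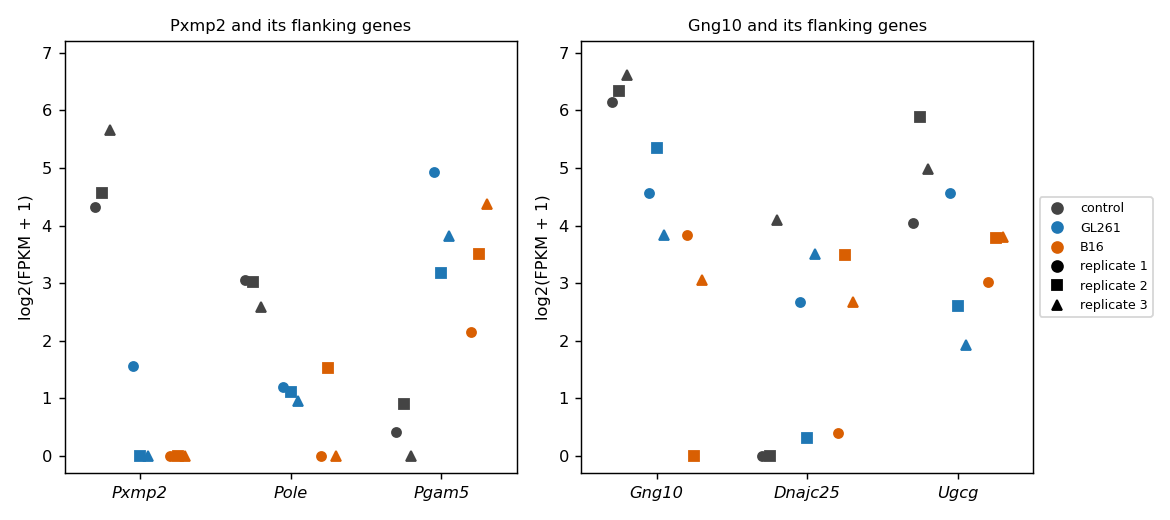
Levels as log2(FPKM + 1) of Pxmp2 (left) and Gng10 (right) and of their flanking genes in each library, coloured by group, with the replicate number as the symbol shape. Pole lies below its controls in all 6 tumor-associated libraries, as does Pxmp2, whereas Pgam5 (3.45 to 29.6 FPKM) lies above its controls (0 to 0.853 FPKM), and Dnajc25 overlaps between groups.

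For each of the 7 genes the 3 genes with the most similar pattern were found by Pearson's r of log2(FPKM + 1) over the 9 libraries. The libraries share the group difference on which the genes were chosen, and r is given as a description. For Cyp4b1 these were Col23a1 (r = 0.956), Flt3l (0.954) and Gm1987 (0.953). Col23a1, a transmembrane collagen, was 14.1 to 19.0 in controls, 0 to 1.86 in GL261 MLECs and 5.97 to 11.7 in B16 MLECs, the same order of groups as Cyp4b1. Flt3l, the ligand of the Flt3 receptor, reached 40.8 in control 1, at most 2.92 in GL261 MLECs and 3.50 to 7.11 in B16 MLECs.

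For Gm525 they were Kantr (0.977), Sptssa (0.970) and Thy1 (0.970). Thy1, a surface glycoprotein, was 222 to 367 in controls, 7.28 to 44.1 in GL261 MLECs and 16.6 to 42.7 in B16 MLECs, and like Gm525 it was highest among tumor-associated MLECs in GL261 3. Fam180a was followed by Rwdd1 (0.961), Laptm4a (0.960) and Gpm6a (0.952). Gpm6a, a membrane glycoprotein, was 426, 313 and 197 in controls 1 to 3, in the same order as Fam180a, and 113 in GL261 3 against 13.7 to 45.5 in the other tumor-associated libraries. Pxmp2 was followed by Dennd4a (0.967), Rnf152 (0.964) and Zdhhc2 (0.964), all with control values of at most 21.0.

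For Pcp4l1 the 3 genes were Cyb5a (0.955), Fyco1 (0.948) and Diap2 (0.941), and for Gm19705 Fam53a (0.935), Itih5 (0.934) and Clcn3 (0.934). For Gng10 they were Psip1 (0.947), Zfp386 (0.946) and Nr2f2 (0.945). Nr2f2, a transcription factor of venous and lymphatic endothelium, was 56.1, 78.1 and 72.7 in controls, 38.1 to 43.4 in GL261 MLECs and 20.2 to 39.1 in B16 MLECs, with its lowest value in B16 2, the library in which Gng10 was listed at 0.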

How the data were processed

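RNA-seq of MLECs was compared in 3 control, 3 GL261 and 3 B16 libraries, grouped by their sample labels. The labels name the Smart-seq2 protocol, whereas the study's methods describe first-strand cDNA given a poly(T) tail before amplification. Per the study's methods and the submitters' processing notes, the authors trimmed adapter, primer and poly(A) sequence, dropped reads of low quality, mapped to mm9 with TopHat2 2.0.12 and computed expression with Cufflinks 2.2.1. The authors deposited FPKM, 1 value per gene symbol and library. The gene annotation behind them is not given in the sources used here. FPKM hold no read counts, so no count model and no counting error could be given, and the study's read table lists fewer mapped reads for every control than for any GL261 or B16 library, so depth and tumor cannot be told apart.

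The values were transformed to log2(FPKM + 1). Differences on this scale understate the change of low genes. The 9955 genes that reached an FPKM of 1 in 3 or more libraries were tested with the limma package (3.58.1, R 4.3.3, functions lmFit and eBayes, variance trend on). P-values were adjusted over all of them by Benjamini-Hochberg, and the threshold was 0.05. Both tumors were joined against control, as in the study, and compared with each other in a fit of all 9 libraries in 3 groups. The fits were tested on simulated data. The 7 genes and the gene lists were chosen with earlier results of these data known. The genes named are the 7 genes, in each family list the genes past the threshold (up to 4) or otherwise the 2 with the highest mean level (in 2 lists, 1 of these is not reported here), the flanking genes, the 3 genes most alike to each of the 7, and markers of cell types. Extremes of a family, B2m, Pcp4, Cyp4b1-ps2 and genes called under 1 alternative were named after their values were seen. Positions came from GENCODE M1 (mm9), transcripts were compared with mm9 by blastn 2.17.0, and upstream sequences came from RefSeq (GRCm38.p6). Figures were drawn with matplotlib 3.10.9 in Python 3.11.15. The alternatives tried were a pseudocount of 0.1, rescaling to a sum of 1000000, quantile normalization, 2 other filters on low values, no variance trend, the number of detected genes as a covariate, the replicate number as a block, other samples or groupings in the fit, and the omission of single libraries. The study's imaging, flow cytometry and survival experiments were not analysed here.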

Additional observations from a re-analysis of the deposited data

Results flagged for a closer look

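Among the 6 tumor-associated libraries a single library stood far from the others in 2 of the 7 genes on the log2(FPKM + 1) scale (Dixon's test at the 95% level, which flags about 5% of groups by chance). Fam180a had an FPKM of 15.7 in GL261 3 and at most 0.379 in the other 5 libraries. Pxmp2 had an FPKM of 1.93 in GL261 1 and was listed at 0 in the other 5. With most of the other values listed at 0, a single value above 0 stands apart in this test whatever its size, so that nothing is read from either.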

How the results depend on the processing

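Each of the 7 genes stayed below its control level in tumor-associated MLECs under all 17 alternatives run for that comparison, and their median difference (-4.60 on the log2 scale) ranged from -5.28 to -4.33. Single genes moved further: with a pseudocount of 0.1, Fam180a was at -7.26 (-4.81 otherwise), Pxmp2 at -7.40 (-4.60) and Cyp4b1 at -6.56 (-5.39), and with detected genes as a covariate, Gng10 was at -4.64 (-2.92), Pxmp2 at -5.30 and Cyp4b1 at -2.50. The direction between the tumors turned for Pcp4l1 with detected genes as a covariate (-0.03), without B16 replicate 1 (-0.19) and without B16 replicate 2 (-0.06), and for Gm525 without GL261 replicate 3 (-0.43). With single libraries left out, the difference ranged from -0.43 to 1.38 for Gm525, from -0.15 to 1.87 for Fam180a, from -0.19 to 1.83 for Pcp4l1, from 0.69 to 2.95 for Gm19705, from 1.14 to 3.06 for Gng10 and from 0.00 to 0.77 for Pxmp2 (0.00 without GL261 replicate 1). None of these differences was past the threshold in either direction.

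A pseudocount of 0.1 gave 1 relative higher (Smim13) and 65 genes lower over all genes, where 102 were lower. Quantile normalization called Cyp4b1 between the tumors, 3 relatives lower (Gnas, Cyb5a and Gng11) and 2 of all genes between the tumors. Without a filter beyond an FPKM above 0 in 1 library, 0 flanking genes were called and 185 genes were higher, where 289 were higher with the filter. With a mean FPKM of at least 10, 0 flanking genes were called, since Pgam5 was then not tested. Without the variance trend 0 relatives were lower, 2 flanking genes were called and 6 genes were called between the tumors. With detected genes as a covariate, 0 relatives were lower, 0 flanking genes were called, and 10 genes were higher and 1 lower over all genes. That number was lower in every control than in any tumor-associated library, so that the covariate and tumor cannot be told apart. The cause of these changes was not tested otherwise.

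Leaving out each library in turn called Cyp4b1 between the tumors only without GL261 replicate 1. It gave 0 to 1 relatives higher (Smim4, Pxmp4, Pex14 or Ptgis, each without another library) and 0 to 1 flanking genes called. Over all genes it gave 182 to 364 genes higher and 51 to 111 lower, and 1 to 4 genes called between the tumors. The 51 genes lower were those without control replicate 1.

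Replicate numbers are shared between groups in the labels. Same-numbered libraries showed no common deviation (r between -0.033 and 0.044 in 9 pairs, 0 over 0.1). With 3 libraries per group and 10 cells in each, this cannot exclude a shared batch. With the number as a block, 0 flanking genes were called, against 1 without it.

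The libraries were made from 10 cells each and their FPKM carry no counting error, so that the precision of low values and of values of 0 is unknown. With 3 libraries per group, the 95% intervals between the tumors span several log2 units.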
